A study of Mus musculus with 2 samples.

Results

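PLZF-positive T nuclei are described here as the small set of nuclei from intestinal CD4+ effector T cells that carried a transcript of Zbtb16 (ENSMUSG00000066687), the gene for PLZF. They were chosen by raw counts of unique molecular identifiers (UMIs, each 1 captured RNA molecule): 500 to 4000 UMIs in all genes, at least 1 UMI of Cd3d, Cd3e and Cd3g together, no UMI of Foxp3, none of the innate lymphoid cell (ILC) genes Kit, Il1r1, Ncr1 and Arg1, and at least 1 UMI of Zbtb16. The rule found 81 of 6614 barcodes, 32 of 2391 in the knockout library and 49 of 4223 in the control library. The knockout library came from CD4creZfp362flox/flox mice, in which sequence of the Cd4 gene drives the Cre recombinase, and the control library from Zfp362flox/flox mice, so both groups carried the floxed alleles of Zfp362, a zinc-finger gene, and only the knockout mice carried Cre. Mice were 26 to 33 weeks old, and 7 mice are named, a number that the labels tie to no genotype. Colon and small intestine were pooled, CD4+CD44+CD62L- cells negative for CD8a, CD11c, CD45R and F4/80 were sorted, and RNA and open chromatin were read from the same nuclei with the 10x Multiome kit. The study, by its title, asks about inflammatory T-cell responses without Zfp362 and their relation to Th17 differentiation.

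PLZF is a transcription factor with a BTB domain and zinc fingers. It directs the innate-like effector programme of invariant NKT cells, mucosal-associated invariant T (MAIT) cells and some gamma-delta T cells, which respond within hours, express receptors shared with natural killer (NK) cells and release several cytokines at once. It is also expressed during the development of ILCs. Such T cells are found in the gut wall beside conventional CD4+ effector cells.

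With 1 library for each genotype there is no replicate check, no test across samples and no p-value. Intervals are at 95% and include counting error alone. RNA levels are UMIs scaled to the total of the same nuclei and given as CPM, and accessibility levels are counts in peaks scaled likewise to all peak counts (peak CPM). A log2 ratio sets PLZF-positive nuclei over the other Cd3-positive nuclei of the same library, which met the same rule with no Zbtb16 UMI (632 knockout and 1511 control nuclei), unless knockout over control is stated. The median PLZF-positive nucleus had 1999 UMIs in the knockout and 2072 UMIs in the control library, against 2072.5 and 1912 UMIs in the other nuclei of those libraries. Together the PLZF-positive nuclei held 70159 knockout and 107637 control UMIs, so genes of low level rest on few molecules. The libraries shared 11 barcodes, of which 0 were PLZF-positive. The sort is labelled as effector T cells, and 1549 barcodes of the same UMI range had an ILC marker and no Cd3 UMI.

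Accessibility was not used to choose the nuclei, and the start sites below are shown because peaks over them are compared in the next paragraph. They were picked after their values were seen. All are RefSeq promoter windows, 250 bases before to 50 after a start site, on mouse assembly GRCm38.p6 (mm10). The first is that of Nkg7, which encodes a protein of cytotoxic granules, at chr7:43436888-43437187 on the plus strand. The second is an alternative start site of Satb1, the gene of a chromatin organiser of thymocytes, at chr17:51826539-51826838, and the third its upstream start site at chr17:51833241-51833540, both on the minus strand. Capitals mark short motifs searched on both strands: TGTGGT of RUNX factors, GGTGTGA of T-box factors, GGAAGT of ETS factors and CAGGTG of E-box factors, in either orientation.
Nkg7: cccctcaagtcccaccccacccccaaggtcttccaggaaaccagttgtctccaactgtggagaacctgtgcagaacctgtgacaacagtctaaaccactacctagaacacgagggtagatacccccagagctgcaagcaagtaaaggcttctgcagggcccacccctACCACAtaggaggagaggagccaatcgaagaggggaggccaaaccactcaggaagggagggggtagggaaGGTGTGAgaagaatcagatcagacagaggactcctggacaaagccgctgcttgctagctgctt
Satb1, alternative start site: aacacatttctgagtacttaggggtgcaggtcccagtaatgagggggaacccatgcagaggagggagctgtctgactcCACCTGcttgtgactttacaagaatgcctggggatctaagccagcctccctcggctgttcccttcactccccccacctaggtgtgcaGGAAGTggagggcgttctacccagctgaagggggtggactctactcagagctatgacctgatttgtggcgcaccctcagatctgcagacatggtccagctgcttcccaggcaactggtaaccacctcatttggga
Satb1, upstream start site: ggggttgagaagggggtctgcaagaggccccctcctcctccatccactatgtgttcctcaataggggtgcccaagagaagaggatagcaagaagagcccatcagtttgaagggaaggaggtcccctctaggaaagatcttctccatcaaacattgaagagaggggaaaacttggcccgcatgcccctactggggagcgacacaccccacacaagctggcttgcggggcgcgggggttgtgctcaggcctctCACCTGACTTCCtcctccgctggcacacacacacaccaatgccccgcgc

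The peak over the Nkg7 window had 24 counts in PLZF-positive and 92 counts in other knockout nuclei, or 83.1 and 18.8 peak CPM, a log2 ratio of 2.17 (1.04 to 3.02). In the control library it had 19 counts in PLZF-positive and 102 counts in other nuclei, or 56.1 and 11.9 peak CPM, a log2 ratio of 2.27 (1.12 to 3.25). The peak over the alternative Satb1 window had 10 counts in PLZF-positive and 16 counts in other knockout nuclei (log2 ratio 3.43, 1.45 to 5.20), and 5 against 16 counts in the control library (3.08, 0.70 to 5.31). At the upstream Satb1 window the log2 ratios were 1.07 (-0.17 to 2.01) in the knockout and 0.63 (-0.43 to 1.57) in the control library, so both intervals included 0 there. The intervals of the alternative and the upstream site overlap, and the difference between them was not tested. In this GRCm38.p6 table the RUNX motif occurs in 16.8% of 32851 promoter windows, the T-box motif in 3.98%, the ETS motif in 23.8% and the E-box motif in 20.2%. Among the 15 genes taken below as the named higher genes, to which Nkg7 does not belong, 11 had 20 windows off chromosome 18, of which 4 held the RUNX, 1 the T-box, 12 the ETS and 4 the E-box motif. Among the 10 named lower genes, 9 had 11 windows, of which 1, 1, 0 and 5 held those motifs. Windows of 1 gene overlap or share peaks, and a match describes letters only.

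Zbtb16 RNA chose the nuclei, so its level is a description. PLZF-positive nuclei had between 1 and 15 Zbtb16 UMIs in the knockout library, with a median of 5, and between 1 and 8 in the control library, with a median of 2. Just inside the threshold, 6 knockout and 15 control nuclei had 1 UMI, and just outside it the other nuclei had none. At least 5 UMIs were found in 19 of 32 knockout and 10 of 49 control nuclei.

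A Zbtb16 UMI was found in 4.82% (3.32 to 6.74) of knockout and 3.14% (2.33 to 4.13) of control nuclei that had Cd3 UMIs and neither Foxp3 nor an ILC marker. With every nucleus thinned to 500 UMIs the shares were 2.86% (1.73 to 4.43), or 19 of 664 knockout nuclei, and 1.28% (0.785 to 1.97), or 20 of 1560 control nuclei. The knockout share was the higher in both readings, and the intervals overlapped in both. Foxp3-positive nuclei, in which PLZF is not characteristic, had a Zbtb16 UMI in 0 of 96 knockout nuclei, which allows a share of up to 3.13% by 3 counts of the total and has an exact upper bound of 3.77%, and in 6 of 242 control nuclei, 2.48% (0.915 to 5.32). Their median depths were 2132 knockout and 2184 control UMIs, and the control interval overlaps that of the 3.14% above. Of the Foxp3-positive nuclei 0 in either library had 2 or more Zbtb16 UMIs, against 3.92% (2.57 to 5.68) of knockout and 2.18% (1.51 to 3.03) of control nuclei without Foxp3 or an ILC marker. Cd3-negative nuclei with an ILC marker had a Zbtb16 UMI in 21.7% of knockout and 22.8% of control nuclei.

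Open chromatin at the Zbtb16 gene was high where its RNA was found. In mm10 it spans chr9:48654297-48836222, transcribed from the minus strand, and all peaks within 10 kb of it were summed, 26 in the knockout and 24 in the control library. The sum was 457 peak CPM in PLZF-positive and 16.7 peak CPM in other knockout nuclei, a log2 ratio of 4.77 (4.12 to 5.26). In the control library it was 245 against 15.5 peak CPM, a log2 ratio of 3.99 (3.45 to 4.59). Of the PLZF-positive nuclei, 25 of 32 (78.1%) knockout and 28 of 49 (57.1%) control nuclei had a count at the locus, against 5.70% and 3.71% of the other nuclei of those libraries. Nuclei with only 1 Zbtb16 UMI stood at 187 knockout and 162 control peak CPM, and those with 2 or more at 518 and 271 peak CPM in those libraries. Foxp3-positive nuclei stood at 33.4 knockout and 37.3 control peak CPM, below nuclei with a single Zbtb16 UMI. ILC-marker nuclei had 222 peak CPM in the knockout and 225 peak CPM in the control library.

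**Figure D1:**
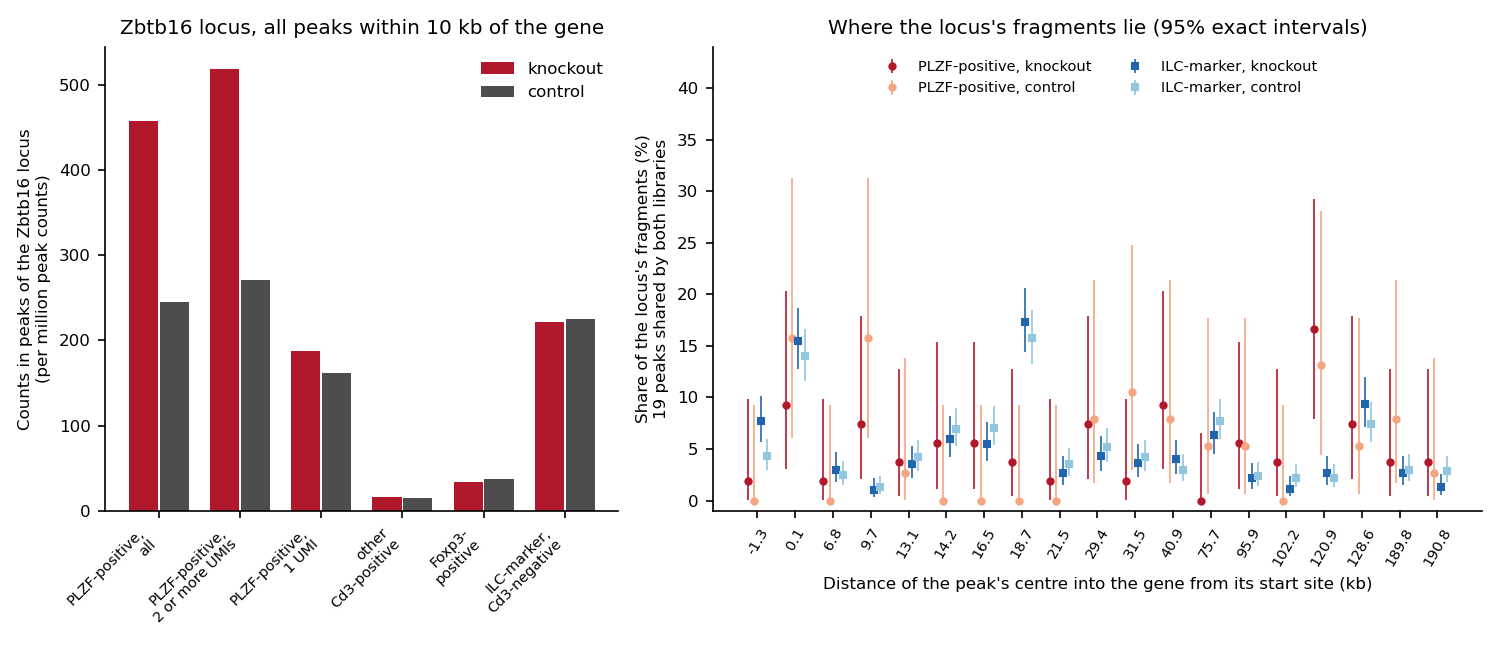
Left, summed peak counts within 10 kb of Zbtb16 (peak CPM, linear axis from 0) in each population of the knockout and control libraries; right, the share of locus fragments in each of 19 shared peaks (percent, with 95% intervals), by distance from the start site (kb), in PLZF-positive and ILC-marker nuclei of each library. PLZF-positive nuclei stand at 457 knockout and 245 control peak CPM, against 16.7 and 15.5 in the other Cd3-positive nuclei of those libraries.

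At some of the 19 peaks called in both libraries, the fragment shares of PLZF-positive T nuclei and ILC-marker nuclei stood apart, though not always beyond their intervals. An intronic peak 9.7 kb inside the gene (chr9:48826134-48826892 in the control library) held 7.41% (2.06 to 17.9) of fragments in knockout and 15.8% (6.02 to 31.3) in control PLZF-positive nuclei, against 1.00% (0.368 to 2.17) and 1.31% (0.630 to 2.40) in ILC-marker nuclei of those libraries. The knockout intervals overlapped at this peak. A second intronic peak at 121 kb (chr9:48714845-48715867) held 16.7% (7.92 to 29.3) in knockout and 13.2% (4.41 to 28.1) in control PLZF-positive nuclei, against 2.67% and 2.23% in ILC-marker nuclei. In the other Cd3-positive nuclei the 121 kb peak held 2.50% in the knockout and 13.6% in the control library, so its share did not set PLZF-positive nuclei apart from them in the control library, while the 9.7 kb peak had 0 of 40 knockout and 0 of 66 control fragments there. The reverse held at 18.7 kb (chr9:48817067-48817963), with 3.70% (0.452 to 12.7) in knockout and 0% (0 to 9.25) in control PLZF-positive nuclei, against 17.4% (14.4 to 20.6) and 15.7% (13.2 to 18.5) in ILC-marker nuclei. The other Cd3-positive nuclei had 10.0% (2.79 to 23.7) in the knockout and 12.1% (5.38 to 22.5) in the control library at 18.7 kb. Those intervals overlap those of both PLZF-positive and ILC-marker nuclei. These shares rest on 54 knockout and 38 control fragments, and the 3 peaks were singled out after their values were seen. The start-site peak (chr9:48835670-48836565) held like shares, 9.26% in knockout and 15.8% in control PLZF-positive nuclei, against 15.5% (12.7 to 18.7) and an interval of 11.6 to 16.7% in ILC-marker nuclei of those libraries. No genome sequence of these peaks was used here.

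The label's other markers, Fcer1g, Klrd1, Klrk1 and Klrb1c, were read together. They were chosen with earlier results of these data known, so their sum is a description and no check of the label. Their summed level was 413 CPM in PLZF-positive and 36.7 CPM in other knockout nuclei (log2 ratio 3.50, 2.78 to 4.18), and 585 against 66.7 CPM in the control library (3.14, 2.70 to 3.55). ILC-marker nuclei stood at 653 knockout and 734 control CPM. At least 1 of their UMIs was found in 11 of 32 knockout and 23 of 49 control PLZF-positive nuclei, 34.4% and 46.9%, against 5.85% and 6.88% of the other nuclei of those libraries. Thinned to 500 UMIs those shares were 25.0% of knockout and 24.5% of control PLZF-positive nuclei, against 1.74% and 1.99% of the others in those libraries. Fcer1g, the signalling chain of Fc and NK receptors, gave only 2 knockout and 5 control UMIs in PLZF-positive nuclei, while ILC-marker nuclei had 481 knockout and 552 control CPM of it. In the control library its RNA ratio was negative at 2 or more Cd3 UMIs. Peaks in and near Fcer1g summed to log2 ratios of -0.06 (-0.83 to 0.62) knockout and -0.48 (-1.44 to 0.27) control. The label's NK receptor markers were thus found as a sum over nuclei, and in fewer than all nuclei one by one.

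Genes of NK receptors were higher as a sum than in other Cd3-positive nuclei. Klrd1, Klrk1 and Klrb1c are among them, so this sum is not independent of that of the label's markers. None of the 19 listed genes passed the minimum of 10 expected UMIs, so they were read as a sum, a reading chosen after that was seen. The sum was 941 CPM in PLZF-positive and 139 CPM in other knockout nuclei (log2 ratio 2.77, 2.33 to 3.17), and 1143 against 156 CPM in the control library (2.88, 2.58 to 3.17). ILC-marker nuclei had 1219 knockout and 1178 control CPM. Klrd1, the CD94 partner of the NKG2 receptors, gave 10 UMIs in 8 knockout and 16 UMIs in 11 control PLZF-positive nuclei, 143 and 149 CPM, against 7.19 and 8.17 CPM in the other nuclei of those libraries. Its log2 ratios were 4.31 (2.89 to 5.73) in the knockout and 4.20 (3.18 to 5.15) in the control library. An NK receptor UMI was found in 46.9% of knockout and 61.2% of control PLZF-positive nuclei, against 17.2% and 15.6% of the other nuclei. Foxp3-positive nuclei had one in 40.6% and 35.1%, and ILC-marker nuclei in 76.8% and 78.6%, of those libraries. Foxp3-positive nuclei had no Klrd1 UMI in the knockout library and 1.76 CPM in the control library. Klrk1, which encodes the activating receptor NKG2D, had 200 CPM in PLZF-positive and 20.1 CPM in other knockout nuclei (3.33, 2.27 to 4.28), and 325 against 44.1 CPM in the control library (2.90, 2.30 to 3.43).

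Some receptors of smaller count went the same way. Of the 19 listed genes, 6 had no UMI in knockout and 5 had none in control PLZF-positive nuclei. Klrb1c, which encodes NK1.1, had 3 knockout and 7 control UMIs in PLZF-positive nuclei, log2 ratios of 3.95 (1.12 to 6.46) and 3.78 (2.19 to 5.11) in those libraries. Klra7 of the Ly49 family had 9 UMIs in 2 knockout and 10 UMIs in 5 control PLZF-positive nuclei and none in the other Cd3-positive nuclei, so it was at least 59.4-fold higher in the knockout and at least 94.8-fold higher in the control library, taking 3 UMIs per group as the floor. Klre1 had 4 knockout and 6 control UMIs, against 0 and 3 in the other nuclei, and was at least 26.4-fold higher in the knockout library. Klra5 showed how few nuclei such counts can rest on, with 13 UMIs in a single control nucleus and 0 in knockout PLZF-positive nuclei. The Ly49 (Klra) genes are close copies of each other in a cluster on chromosome 6, so the split of reads between them is uncertain.

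**Figure D2:**
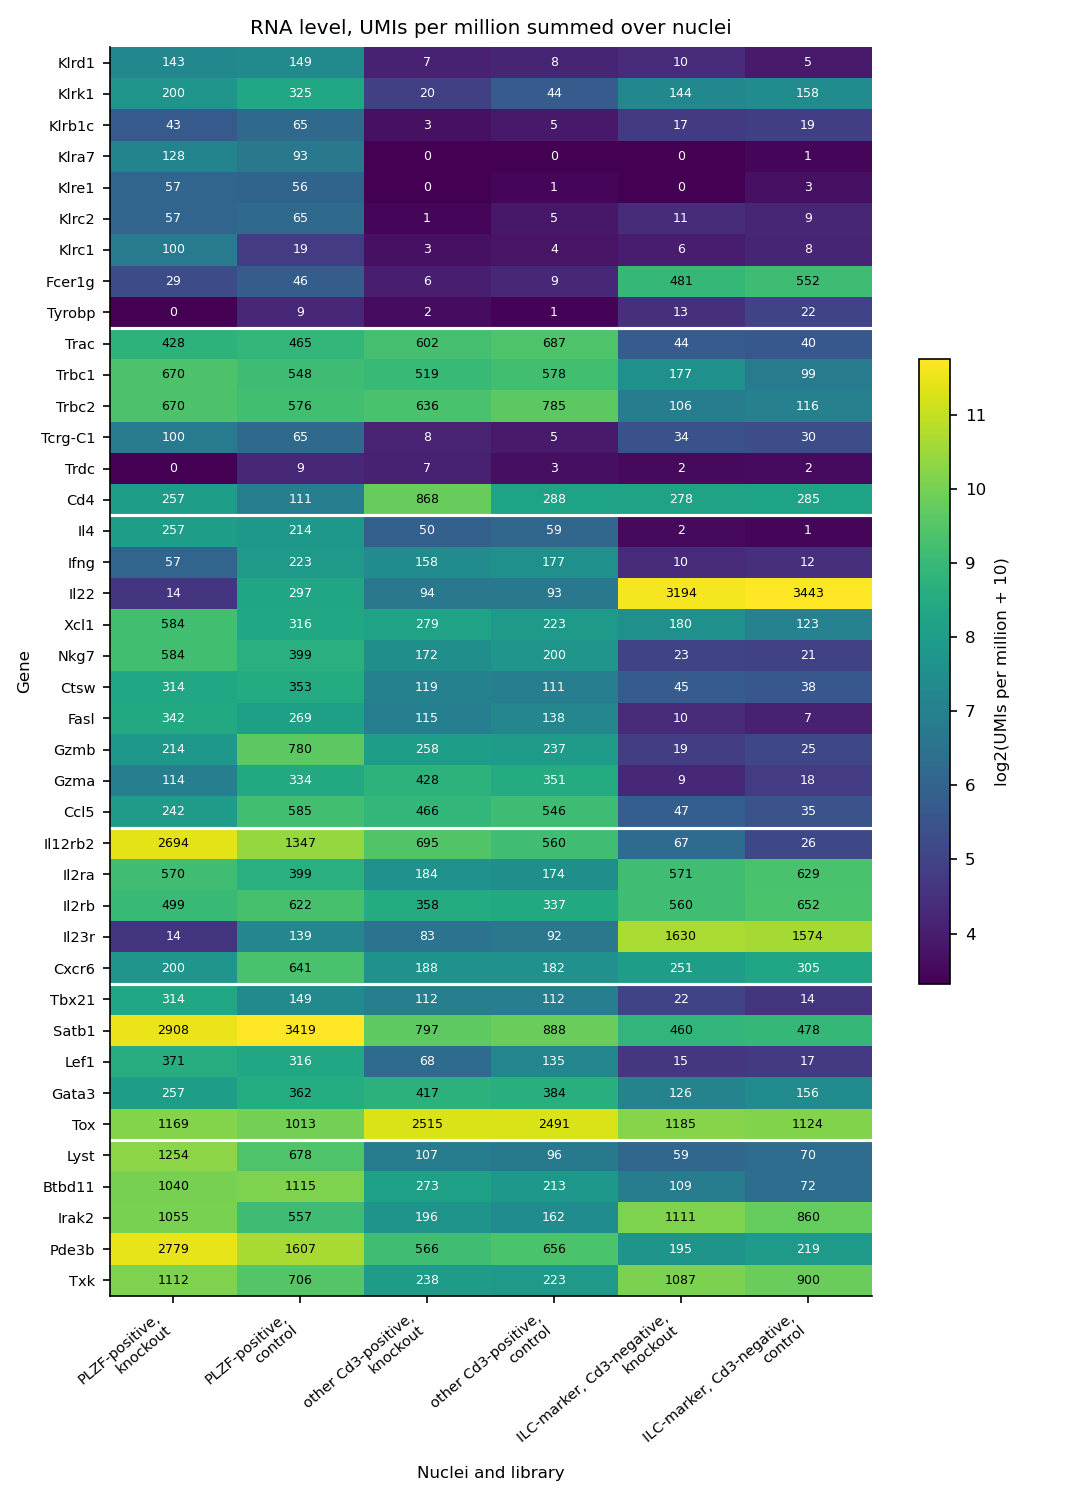
RNA level of NK receptor genes, T-cell receptor genes, cytokine and effector genes, receptors and factors in PLZF-positive, other Cd3-positive and ILC-marker nuclei, knockout left of control. Cells print CPM and the colour is log2 of CPM plus 10. Klrd1 stands at 143 knockout and 149 control CPM in PLZF-positive nuclei, against 7.19 and 8.17 CPM in the other nuclei, while Fcer1g is high in ILC-marker nuclei.

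T-cell receptor genes were read next. Trac, the constant part of the alpha chain, had 428 CPM in PLZF-positive and 602 CPM in other knockout nuclei (log2 ratio -0.47, -1.07 to 0.03), and 465 against 687 CPM in the control library (-0.55, with an upper bound of -0.16). ILC-marker nuclei had 44.2 knockout and 40.5 control CPM of Trac. Segments of the invariant NKT receptor summed to 128 CPM in PLZF-positive and 57.6 CPM in other knockout nuclei (1.23, -0.02 to 2.15) and to 46.5 against 58.2 CPM in the control library (-0.19, -1.96 to 0.93), so no difference was detectable at this depth. The 3 MAIT segments had 0 UMIs in PLZF-positive nuclei of either library, against only 7 knockout and 14 control UMIs in the other nuclei. The upper bounds of the log2 ratio were 3.78 knockout and 3.10 control, so these counts cannot show a difference either way. Markers of gamma-delta T cells were higher as a sum, 157 CPM in PLZF-positive against 47.5 CPM in other knockout nuclei (1.78, 0.65 to 2.66), and 139 against 36.9 CPM in the control library (1.96, 1.03 to 2.70). Their largest part was Tcrg-C1, with 7 UMIs in 6 nuclei of each library, while Trdc, the delta constant gene that defines the lineage, had 0 knockout and 1 control UMI. ILC-marker nuclei, which had no Cd3 UMI, held the same marker sum at 132 knockout and 124 control CPM, near the level of PLZF-positive nuclei. Tcrg-C1 was at 34.0 knockout and 29.6 control CPM in ILC-marker nuclei. The part of gamma-delta cells in the results was not tested. Without nuclei that had a gamma-delta constant UMI, 22 knockout and 38 control PLZF-positive nuclei remained, 946 genes passed the minimum, and 14 of the 25 genes counted below were again 2-fold higher.

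Cd4, the co-receptor of the sort, was low in these nuclei. It had 257 CPM in PLZF-positive and 868 CPM in other knockout nuclei (log2 ratio -1.72, -2.52 to -1.09), and 111 against 288 CPM in the control library (-1.31, -2.32 to -0.55). A Cd4 UMI was found in 10 of 32 knockout and 9 of 49 control PLZF-positive nuclei, 31.2% and 18.4%, against 74.4% and 38.8% of the other nuclei of those libraries. Cd8a and Cd8b1 had no UMI in PLZF-positive nuclei. They had only 6 UMIs in the other nuclei of each library, so these counts cannot show a difference. Peaks in and near Cd4 summed to log2 ratios of -0.41 (-0.84 to 0.02) in the knockout and -0.22 (-1.01 to 0.48) in the control library. Other lineage markers were read as sums. The 5 ILC markers outside the rule summed to 42.8 CPM in PLZF-positive and 273 CPM in other knockout nuclei and to 121 against 269 CPM in the control library, and ILC-marker nuclei had 1242 knockout and 1193 control CPM. Markers of B cells stood at 14.3 knockout and 18.6 control CPM in PLZF-positive nuclei, against 41.0 and 18.3 CPM in the other nuclei of those libraries. Markers of epithelium stood at 85.5 and 46.5 CPM, against 151 and 46.4 CPM. Those of myeloid or dendritic cells stood at 57.0 and 195 CPM, against 218 and 141 CPM, and so were not lower in the control library. Stromal and endothelial markers stood at 114 and 102 CPM, against 191 and 155 CPM. The part of these cells in the results was not tested. Of the 11 regulatory T-cell markers outside the rule 6 were tested, with Il2ra higher and Tnfrsf4 lower. Over all genes tested, 1.78% were 2-fold higher and 2.64% 2-fold lower in both libraries. The medians of those 6 were -0.71 knockout and -0.29 control. The sum of the 11 markers was 3905 CPM in PLZF-positive against 5173 CPM in other knockout nuclei and 3948 against 4813 CPM in the control library.

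Across all genes, 1404 had at least 10 expected UMIs on each side in both libraries. Of these, 25 (1.78%) were at least 2-fold higher in PLZF-positive nuclei of both libraries and 37 (2.64%) at least 2-fold lower, and 0 passed 2-fold in opposite directions. The median log2 ratio over all of them was -0.02 in the knockout and -0.01 in the control library. With no upper limit of UMIs, 53 knockout and 62 control nuclei met the rule, 20 genes were higher and 10 lower, and only 9 and 3 of them were among the 25 and 37. Of the 25, 15 genes are taken as the named higher genes, and of the 37, 10 as the named lower genes. These had an interval excluding 0 in both libraries and no nucleus with over 20% of the UMIs on the higher side. Genes of the lists are also given, whether or not they passed.

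**Figure D3:**
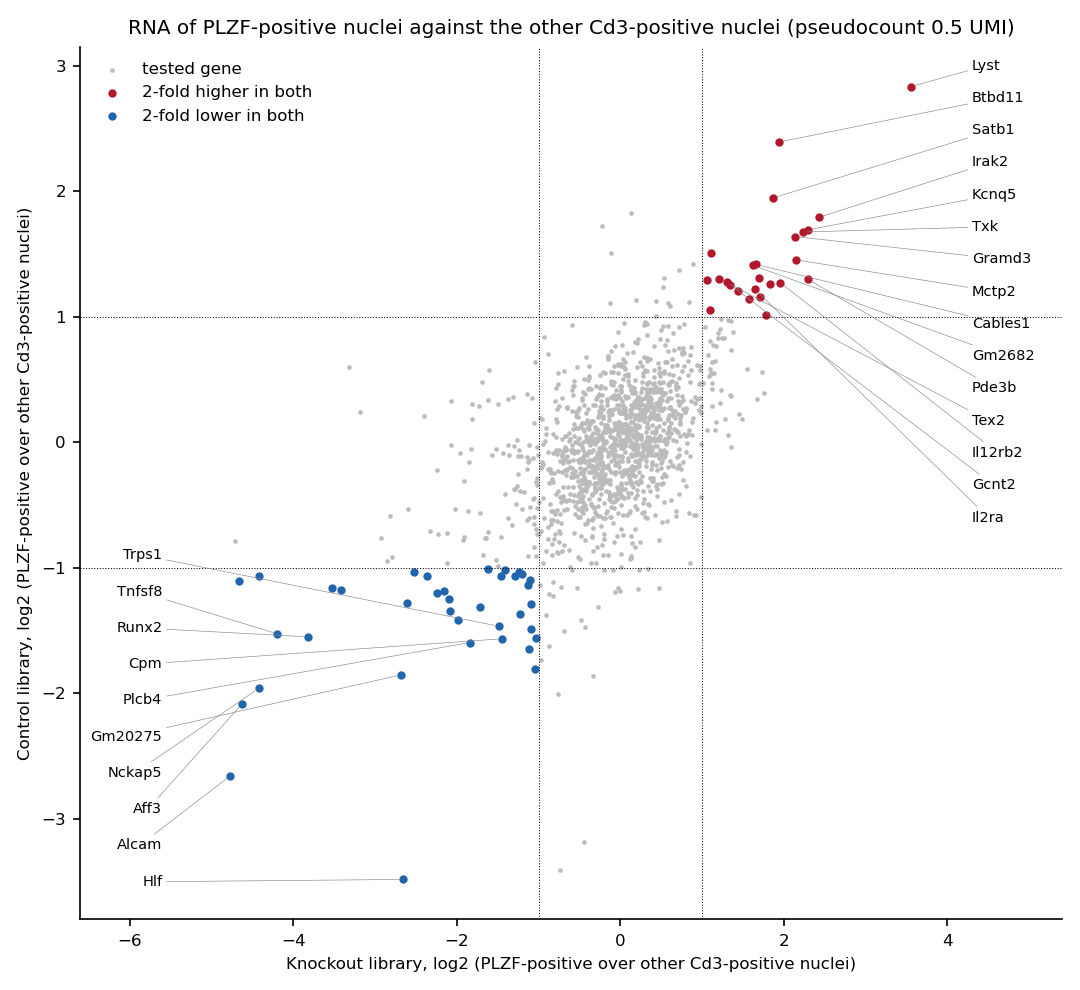
Log2 ratio of PLZF-positive over other Cd3-positive nuclei in the knockout library (x axis) and the control library (y axis), 1 point per gene of 1404, with the named genes labelled and dotted lines at 2-fold. Lyst stands highest, at 3.55 in the knockout and 2.83 in the control library, and Hlf lies lowest on the y axis, at -2.66 in the knockout and -3.48 in the control library.

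Lyst, which encodes the regulator of lysosome-related granules, had the largest ratios: 1254 CPM in PLZF-positive and 107 CPM in other knockout nuclei (log2 ratio 3.55, 3.15 to 3.94), and 678 against 95.7 CPM in the control library (2.83, 2.43 to 3.20). It was found in 20 of 32 knockout and 27 of 49 control PLZF-positive nuclei, while ILC-marker nuclei had 58.6 knockout and 70.1 control CPM. Nkg7 stood at 584 against 172 CPM in the knockout library (1.78, 1.25 to 2.25) and at 399 against 200 CPM in the control library (1.01, 0.52 to 1.45), in the same direction as the peak over its start site. Serpinb9, an inhibitor of granzyme B, had log2 ratios of 1.70 (1.08 to 2.25) in the knockout and 1.15 (0.55 to 1.67) in the control library. Of the 10 cytotoxic genes listed, 4 passed the minimum and 2 of those were higher in both libraries, Nkg7 and Serpinb9, against 1.78% of all genes tested, with a list median of 0.74 knockout and 1.08 control. The knockout median was -0.12 at 2 or more Zbtb16 UMIs and -0.050 at 2 or more Cd3 UMIs. Ctsw, a cathepsin of cytotoxic cells, and Fasl, the ligand of the death receptor Fas, did not reach the minimum. Ctsw had log2 ratios of 1.42 (0.68 to 2.04) knockout and 1.68 (1.14 to 2.15) control, and Fasl of 1.60 (0.89 to 2.20) and 0.99 (0.37 to 1.51) in those libraries. Gzmb, which encodes granzyme B, went apart by library, with 214 against 258 CPM in the knockout library (-0.22, -1.12 to 0.47) and 780 against 237 CPM in the control library (1.73, 1.37 to 2.05). A single control PLZF-positive nucleus held over 20% of the Gzmb UMIs there.

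Transcription and chromatin factors were found among both the higher and the lower genes. Satb1 had 2908 CPM in PLZF-positive and 797 CPM in other knockout nuclei (log2 ratio 1.87, 1.64 to 2.08), and 3419 against 888 CPM in the control library (1.95, 1.78 to 2.10). It was detected in 31 of 32 knockout and 43 of 49 control PLZF-positive nuclei, against 41.3% and 41.4% of the other nuclei of those libraries. Peaks in and near Satb1 summed to log2 ratios of 1.54 (0.77 to 2.03) knockout and 1.15 (0.53 to 1.70) control, so RNA and open chromatin were higher together. Lef1, a factor of naive and memory T cells, had 371 against 67.6 CPM in the knockout library (2.47, 1.77 to 3.09) and 316 against 135 CPM in the control library (1.24, 0.67 to 1.73), below the minimum. Of the 10 naive T-cell genes, 4 passed the minimum and Satb1 alone was higher in both libraries, against 1.78% of all genes tested. The list medians were 0.83 knockout and 0.22 control. Tox, a factor of T-cell development and chronic stimulation, was lower, with 1169 CPM in PLZF-positive against 2515 CPM in other knockout nuclei (-1.10, -1.44 to -0.79) and 1013 against 2491 CPM in the control library (-1.29, -1.58 to -1.03). Hlf, Aff3, Runx2 and Trps1, which also encode nuclear factors, were lower in both libraries. Hlf had 2 knockout and 1 control UMI in PLZF-positive nuclei, against 225 and 156 CPM in the other nuclei of those libraries. Aff3 had 0 UMIs in knockout PLZF-positive nuclei and was at least 4.11-fold lower, and 46.5 against 217 CPM in the control library (-2.08, -3.85 to -0.99). Runx2 had log2 ratios of -3.81 (-9.70 to -1.91) knockout and -1.55 (-2.62 to -0.77) control, and Trps1 of -1.49 (-2.15 to -0.95) and -1.46 (-1.96 to -1.04). Eomes had no UMI in PLZF-positive nuclei, and Tbx21, the T-box factor of type 1 cells, had 1.51 (0.77 to 2.13) knockout and 0.45 (-0.42 to 1.12) control.

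Il12rb2, the inducible chain of the IL-12 receptor, had 2694 CPM in PLZF-positive and 695 CPM in other knockout nuclei (log2 ratio 1.96, 1.72 to 2.18), and 1347 against 560 CPM in the control library (1.27, 1.01 to 1.51). It was found in 30 of 32 knockout and 33 of 49 control PLZF-positive nuclei, and ILC-marker nuclei had only 67.1 knockout and 25.7 control CPM. Irak2, a kinase of IL-1 and Toll-like receptor signalling, stood at 1055 against 196 CPM in the knockout library (2.43, 2.03 to 2.80) and 557 against 162 CPM in the control library (1.79, 1.37 to 2.17). Txk, a Tec-family kinase downstream of the T-cell receptor, had 1112 against 238 CPM in the knockout library (2.23, 1.85 to 2.58) and 706 against 223 CPM in the control library (1.67, 1.30 to 2.01). Il2ra, the alpha chain of the IL-2 receptor, had 1.65 (1.11 to 2.12) knockout and 1.22 (0.72 to 1.65) control. ILC-marker nuclei held Irak2, Txk and Il2ra at levels near those of PLZF-positive nuclei, at 1111, 1087 and 571 CPM in the knockout and 860, 900 and 629 CPM in the control library. Among 15 genes listed as innate-like, 9 passed the minimum and 2 were higher in both libraries, Txk and Nkg7, against 1.78% of all genes tested. The list medians were 0.13 knockout and 0.53 control, and the knockout median was -0.51 without nuclei with a gamma-delta constant UMI.

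Pde3b, a phosphodiesterase that breaks down cyclic AMP, had 2779 CPM in PLZF-positive and 566 CPM in other knockout nuclei (log2 ratio 2.30, 2.06 to 2.52), and 1607 against 656 CPM in the control library (1.30, 1.06 to 1.52). Kcnq5, a potassium channel gene, had 2.30 (2.01 to 2.56) knockout and 1.69 (1.41 to 1.96) control. Btbd11, a gene for a protein with BTB and ankyrin repeats, had 1040 against 273 CPM in the knockout library (1.94, 1.55 to 2.30) and 1115 against 213 CPM in the control library (2.39, 2.09 to 2.67). Bcl2, the survival factor, had 770 against 240 CPM in the knockout library (1.69, 1.24 to 2.10) and 753 against 306 CPM in the control library (1.31, 0.95 to 1.63). Bcl2 does not belong to the named higher genes. Gramd3, Mctp2, Cables1, Gm2682, Tex2 and Gcnt2 complete the named genes, with log2 ratios between 1.30 and 2.14 in the knockout and between 1.26 and 1.64 in the control library.

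Tnfsf8, which encodes CD30 ligand, had 2 UMIs, or 28.5 CPM, in knockout PLZF-positive nuclei against 653 CPM in other knockout nuclei (log2 ratio -4.20, -7.57 to -2.66), and 279 against 816 CPM in the control library (-1.53, -2.12 to -1.03). Alcam, the ligand of CD6, had 0 UMIs in knockout PLZF-positive nuclei and was at least 4.54-fold lower, and 37.2 against 264 CPM in the control library (-2.66, -4.71 to -1.46). Nckap5, with 0 knockout and 3 control UMIs, was at least 3.57-fold lower in the knockout library. Tnfrsf4 (OX40), Areg and the integrin gene Itga4 were also lower in both libraries, with log2 ratios between -2.16 and -1.04 knockout and between -1.56 and -1.18 control. Plcb4, a phospholipase gene, had -1.84 in the knockout and -1.60 in the control library, and the control ratio was 0.16 with no upper limit of UMIs, and Cpm, carboxypeptidase M, had -1.45 knockout and -1.57 control. The unnamed transcript Gm20275 had -2.68 knockout and -1.85 control. Ctla4, the inhibitory receptor rich in Foxp3-positive nuclei, had 342 against 1517 CPM in the knockout library (-2.12, -2.79 to -1.57) and 864 against 1430 CPM in the control library (-0.72, -1.04 to -0.43), and so passed 2-fold in the knockout library alone. Of the tested genes of type 1 (3 of 7), type 2 (2 of 7), type 17 (2 of 11) and follicular helper (2 of 6) lists, Il12rb2 alone was past 2-fold in both libraries. Of 13 residency genes 8 were tested, and Itga4 alone was past 2-fold in both. Over all genes tested, 1.78% were 2-fold higher and 2.64% 2-fold lower in both libraries. The type 1 medians were -0.29 knockout and 0.36 control, and the residency medians -0.33 knockout and 0.02 control.

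Il4, a cytokine gene of type 2 responses, did not reach the minimum of expected UMIs. It had 18 UMIs in 5 knockout and 23 UMIs in 7 control PLZF-positive nuclei, 257 and 214 CPM, against 49.6 and 59.5 CPM in the other nuclei of those libraries. The log2 ratios were 2.40 (1.53 to 3.13) knockout and 1.87 (1.15 to 2.48) control, and ILC-marker nuclei had 1.70 knockout and 0.987 control CPM. Peaks in and near Il4 summed to 152 peak CPM in PLZF-positive against 38.5 peak CPM in other knockout nuclei (2.00, 1.26 to 2.65) and to 115 against 44.7 peak CPM in the control library (1.38, 0.70 to 2.07). Il13, also a type 2 cytokine, had 0 UMIs in PLZF-positive nuclei of either library. The 7 genes of the type 2 list, Il4 among them, summed to a log2 ratio of -0.46 (-0.98 to -0.02) knockout and -0.01 (-0.36 to 0.30) control. Ifng differed in sign between the libraries, with -1.31 (-3.36 to -0.10) knockout and 0.36 (-0.32 to 0.92) control. Il17a, a cytokine gene of type 17 responses, had 1 knockout and 4 control UMIs. Of 15 genes known to act in the induction of PLZF, 6 passed the minimum and 0 were past 2-fold in both libraries, with medians of -0.19 knockout and -0.08 control. Of 14 genes for PLZF partners and related BTB zinc fingers, 4 passed and 0 were past 2-fold.

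Single peaks held few counts. Of 3103 peaks with at least 10 expected fragments, 0 (0%) were 2-fold higher and 3 (0.0967%) 2-fold lower in PLZF-positive nuclei of both libraries. At a minimum of 2 expected fragments, added after seeing this, 17315 peaks were read, of which 134 were higher and 438 lower, 24 and 13 of them with intervals excluding 0 in both libraries. Ranked by the smaller of the ratios in the libraries, the Nkg7 peak led these 24, ahead of an intronic Tex2 peak at chr11:106564011-106564922 in the control library, with log2 ratios of 2.68 (1.45 to 3.63) knockout and 2.00 (1.00 to 2.82) control. An intronic peak of Cd5, the gene of an inhibitory T-cell receptor partner, at chr19:10731711-10732610, had 0 counts in PLZF-positive nuclei of either library, against 139 counts in other knockout and 221 counts in other control nuclei.

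Counts summed over all peaks of a gene body and 10 kb to either side gave more depth, a reading also added after the single peaks were seen. Of 9795 genes, 72 (0.735%) were at least 1.5-fold higher in both libraries and 105 (1.07%) at least 1.5-fold lower. All 25 genes with higher RNA could be read, and 8 of them were 1.5-fold higher in both libraries, with 22 positive in both and medians of 0.61 knockout and 0.63 control. The 8 were Btbd11, Satb1, Txk, Gcnt2, Slc16a10, Gm2682, Cables1 and Gramd3. At Nkg7 the sum was 0.88 knockout, with an interval above 0, and 0.23 (-0.42 to 0.96) control. Btbd11 had 253 peak CPM in PLZF-positive and 72.4 peak CPM in other knockout nuclei (log2 ratio 1.81, 1.26 to 2.32), and 162 against 72.4 peak CPM in the control library (1.18, 0.63 to 1.77). Lyst did not follow its RNA, with -0.31 (-1.41 to 0.48) knockout and 0.61 (-0.11 to 1.20) control. Of 37 genes with lower RNA 27 could be read, and 7 were 1.5-fold lower, with 20 negative in both libraries and medians of -0.40 knockout and -0.51 control. Tox had 107 against 290 peak CPM in the knockout library (-1.41, -2.14 to -0.66) and 157 against 333 peak CPM in the control library (-1.08, -1.74 to -0.58). Over all 9795 genes the medians were 0.01 knockout and -0.02 control.

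**Figure D4:**
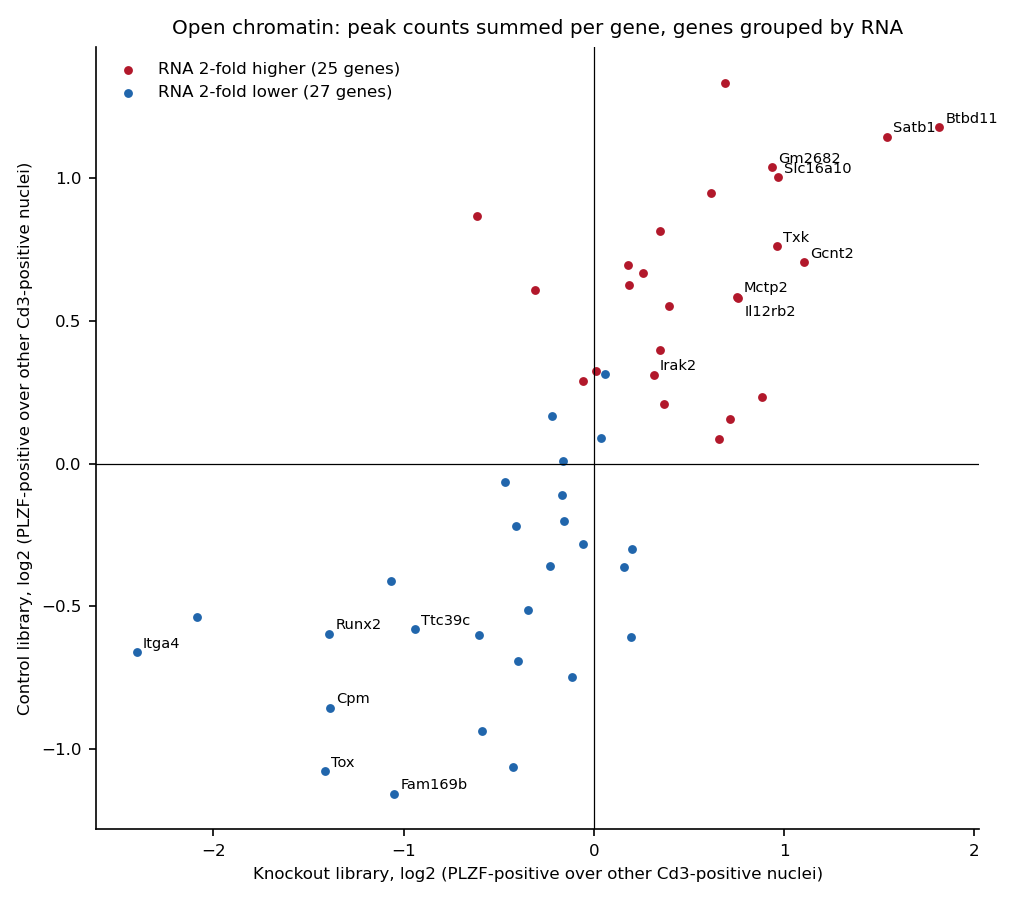
Log2 ratio of summed peak counts, PLZF-positive over other Cd3-positive nuclei, in the knockout library (x axis) and the control library (y axis), 1 point for each readable gene with higher RNA (25) or lower RNA (27). Of the genes with higher RNA 22 are positive in both libraries, and of those with lower RNA 20 are negative in both.

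Zfp362, the deleted gene, had 0 UMIs in knockout and 2 UMIs in control PLZF-positive nuclei, and 12 knockout and 35 control UMIs in the other nuclei, so RNA at this depth does not check the genotype. Peaks in and near it had a log2 ratio of knockout over control of -0.82 (-2.14 to 0.24) in PLZF-positive and -0.39 (-0.67 to -0.16) in other nuclei. Between knockout and control PLZF-positive nuclei, 1442 genes had at least 10 expected UMIs on each side. Of these, 60 (4.16%) were 2-fold higher and 81 (5.62%) 2-fold lower in the knockout library, 50 and 69 of them with an interval excluding 0, and the median was 0.03. Animals, batch and genotype cannot be told apart with 1 library each.

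Gzmb gave 15 UMIs in 4 knockout nuclei and 84 UMIs in 20 control nuclei, 214 and 780 CPM, a log2 ratio of knockout over control of -1.83 (-2.77 to -1.06), against 0.12 (-0.07 to 0.30) in the other nuclei. That ratio was -0.39 with no upper limit of UMIs and -0.92 without nuclei with a gamma-delta constant UMI. A single control nucleus held over 20% of the Gzmb UMIs, so Gzmb did not meet the limit set for named genes. Cxcr6, the receptor of CXCL16 on tissue lymphocytes, had 200 CPM in 11 of 32 knockout and 641 CPM in 27 of 49 control nuclei (-1.64, -2.63 to -0.84), against 0.05 in the other nuclei. Ifng had 57.0 knockout and 223 control CPM (-1.83, -3.95 to -0.43). Gzma and the chemokine gene Ccl5 had -1.48 (-2.87 to -0.42) and -1.24 (-2.14 to -0.48), and Lgals1, which encodes galectin 1, had -1.89 (-4.01 to -0.49). Itgae and Nrp1 had 0 knockout and 11 control UMIs each, so both were at least 2.39-fold lower. Il22 had 1 knockout and 32 control UMIs, of which 28 came from 1 nucleus. Of 8 residency genes tested 2 were lower, Cxcr6 and Gpr183, a receptor of oxysterols, and of 7 cytotoxic genes tested 2 were lower, Gzma and Gzmb, against 5.62% of all genes tested that were lower. The residency list had a median of -0.32 and a sum of -0.51 (-0.76 to -0.25), while the cytotoxic list had a median of 0.097 and a sum of -0.28 (-0.57 to 0.0051), which differ in sign. Cxcr6 peaks had a log2 ratio of 0.46 (-0.67 to 1.52), so open chromatin was not detectably lower. That interval lies above the interval of the Cxcr6 RNA ratio, and the difference between RNA and peaks was not tested. With no upper limit of UMIs, 12 of the 60 higher and 16 of the 81 lower genes were again past 2-fold.

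Il12rb2 had 2694 knockout and 1347 control CPM, a log2 ratio of knockout over control of 1.00 (0.68 to 1.32), against 0.31 (0.20 to 0.43) in the other nuclei. Tbx21 had 314 CPM in 14 of 32 knockout and 149 CPM in 12 of 49 control nuclei (1.06, 0.08 to 2.10), against 0.00 (-0.28 to 0.27) in the other nuclei. Slamf7, an adhesion receptor of cytotoxic cells, had 1.51 (0.37 to 2.81), and Sytl3, a vesicle-trafficking gene, 1.35 (0.80 to 1.94), against 0.54 (0.40 to 0.67) in the other nuclei. Zbtb16 itself was at 0.73 (0.40 to 1.08), given as a description, and the 19 peaks of its locus called in both libraries at 0.77 (0.12 to 1.38). Cd4 was higher in knockout PLZF-positive nuclei (1.18, 0.07 to 2.39) and in the other knockout nuclei (1.59, 1.47 to 1.72). Its peaks called in both libraries were at 1.60 (0.69 to 2.49) in PLZF-positive and 1.65 (1.46 to 1.78) in other nuclei. The knockout mice alone carried the CD4cre transgene, and its part in these ratios was not tested.

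Of the other named genes, higher in knockout PLZF-positive nuclei were Sun2 of the nuclear envelope (1.72), the splicing gene U2surp (1.65), Mtmr12 (1.65), the DNA polymerase gene Rev3l (1.59), Gm26917 (1.52), the endosome gene Rab5a (1.47), the bicarbonate transporter gene Slc4a7 (1.47) and the SNARE gene Vamp4 (1.39). Lower were Gch1 of tetrahydrobiopterin synthesis (-2.11), the mitochondrial genes Mrps6 (-2.05) and Cox8a (-1.92), Ssbp2 (-1.89, and 0.42 with no upper limit of UMIs), the deubiquitinase gene Usp37 (-1.85), 1810013L24Rik (-1.70) and Vps13a (-1.70). Each lower gene here had between 4 and 7 UMIs in knockout PLZF-positive nuclei. In other nuclei the 20 named genes had ratios between -0.53 (Lgals1) and 0.54 (Sytl3). Peak sums of these 20 genes in PLZF-positive nuclei all had intervals that included 0, and 12 had the sign of the RNA ratio.

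**Figure D5:**
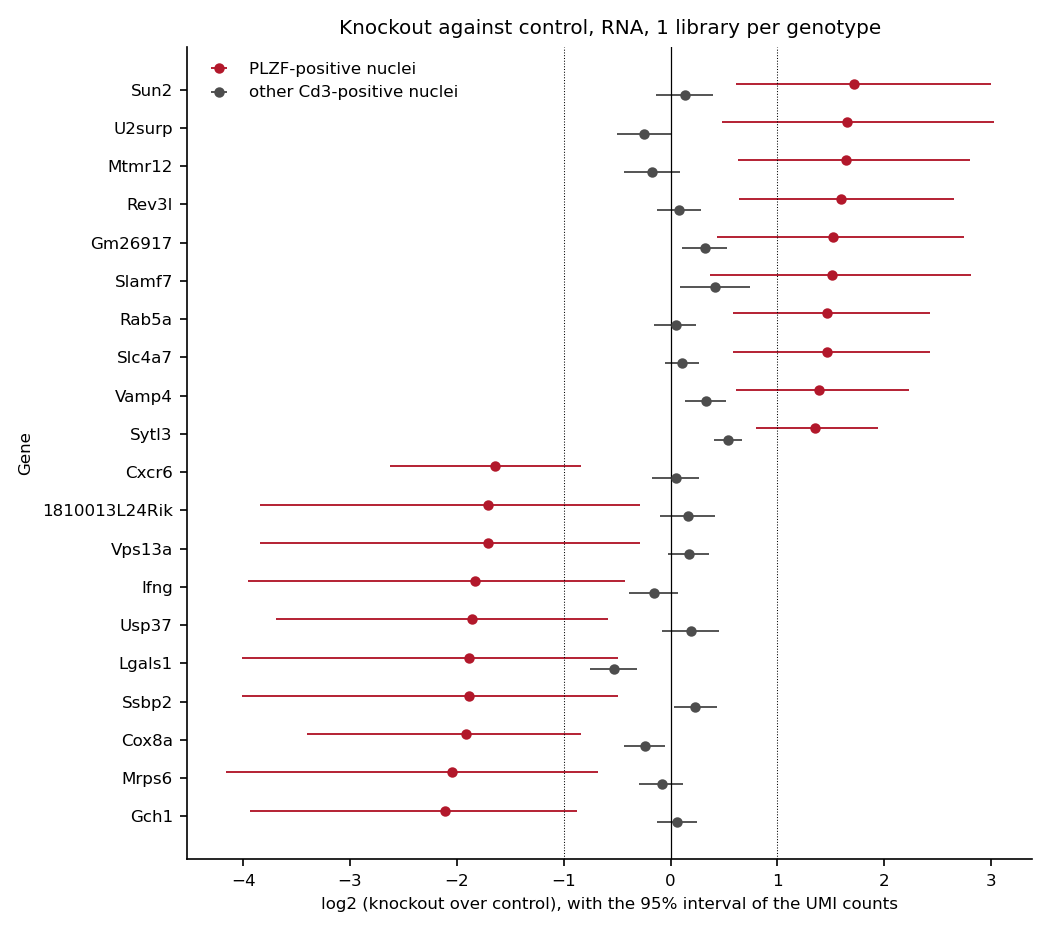
Log2 ratio of knockout over control for the 20 named genes in PLZF-positive nuclei and in the other Cd3-positive nuclei, with 95% counting intervals. The ratios in PLZF-positive nuclei run between -2.11 (Gch1) and 1.72 (Sun2), and those in the other nuclei between -0.53 and 0.54.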

How the data were processed

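RNA and open chromatin were measured in 1 knockout and 1 control library of nuclei. The deposited files hold raw counts per barcode, per the file headers: UMI counts of genes and counts in peaks, made by the authors with Cell Ranger ARC 2.0.1 on mm10, per the submitters' processing notes. Filtered barcodes held 9348999 knockout and 10803590 control UMIs, with medians of 2270 and 1996 per barcode. Nuclei were grouped by the UMI rule in the text. No doublet caller was run, and 4000 UMIs was the upper limit. The members and lists were chosen with earlier results of these data known.

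Log2 ratios of summed counts used a pseudocount of 0.5, a minimum of 10 expected UMIs or fragments and exact conditional intervals. Peak intervals use fragments, counted as 1 for each pair of counts in a nucleus and peak, rounded up. Peaks of the libraries were paired by best mutual overlap of at least 1 base. Named genes were up to 15 higher and 10 lower, 2-fold in both libraries with intervals excluding 0, and up to 10 each way between genotypes, with any listed gene also allowed. Shares have Clopper-Pearson intervals, and PCR duplicates beyond UMIs are not covered. Gene positions are from GENCODE vM21 and promoter sequences from RefSeq on GRCm38.p6. Other readings were added after seeing the data: list sums, a minimum of 2 fragments and peak sums by gene. The ratio was tested on simulated data. Python 3.11.15, numpy 2.4.6, scipy 1.17.1, pandas 2.3.3 and matplotlib 3.10.9 were used.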

Additional observations from a re-analysis of the deposited data

Results flagged for a closer look

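A few genes differed in sign between genotypes or populations, with intervals that excluded 0 on both sides. These differences between ratios were not tested. Of 1739 genes read, 10 had opposite signs in the libraries and 26 in the populations. Pde3b had a log2 ratio of knockout over control of 0.79 in PLZF-positive nuclei and -0.21 in the other Cd3-positive nuclei. The same ratio for Gzma was -1.48 in PLZF-positive and 0.29 in other nuclei, for Ssbp2 -1.89 and 0.23, and for Itgae -3.91 and 0.45, where Itgae had 0 UMIs in knockout PLZF-positive nuclei, so that its fitted ratio depends on the pseudocount. The ratio of PLZF-positive over other nuclei was -2.13 in the knockout and 1.69 in the control library for Il22, and -1.04 and 0.64 for Cox8a. Of the 32 control Il22 UMIs, 28 came from 1 nucleus.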

How the results depend on the processing

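No paired analysis was possible because each genotype has 1 library, and for the same reason no replicate could be left out. Main results stayed within their counting error or within 1.5 times in 159 comparisons and moved in 33. Single genes did so in 684 comparisons of PLZF-positive with other nuclei, moved in 66 and reversed in sign in 2. Between knockout and control PLZF-positive nuclei, single genes did so in 269, moved in 10 and reversed in sign in 1. List sums did so in 176 and moved in 20. The cause of the moves was not tested. The upper limit of UMIs changed the results widely: without it 10 genes were lower, 124 were higher and 204 lower in knockout against control nuclei, 6 peaks were lower, the knockout Zbtb16 locus ratio was 3.61, the knockout median of naive genes 0.26, and the signs turned for Plcb4 in the control library (0.16) and Ssbp2 between genotypes (0.42). At 2 or more Zbtb16 UMIs the knockout median of cytotoxic genes was -0.12, and 21 of the 25 higher genes and 21 of the 37 lower genes were again called. At 2 or more Cd3 UMIs that median was -0.050, 1 peak was lower and Fcer1g in the control library was at -0.15. Without nuclei with gamma-delta constant UMIs, 16 genes were higher and 24 lower, and the knockout innate-like median was -0.51. A pseudocount of 2 left 21 lower genes. A minimum of 30 expected UMIs gave 6 higher and 14 lower genes, and 4 and 14 between genotypes, and a minimum of 1 gave 209, 286, 980 and 1057. At 1.5-fold the counts were 67, 103, 213 and 234 genes, and 6 higher and 36 lower peaks. A minimum of 30 expected fragments left 0 lower peaks, and one of 2 gave 134 higher and 438 lower. The unthinned shares of nuclei with a Zbtb16 UMI were 4.82% knockout and 3.14% control, and the control share at 1000 UMIs was 2.31%. At this depth no NK receptor gene reached the minimum of 10 expected UMIs in the comparison with other nuclei.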
